A study of Mus musculus with 60 samples.

Results

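Hippocampal RNA of mice carrying melanoma cells labelled cachectic (CAC) was compared with that of mice carrying melanoma cells labelled non-cachectic (NCAC), both 8 wk after injection. The members were chosen by label and time: 7 CAC samples and 5 NCAC samples, 12 of the 60 samples of the series. All were hippocampi of female mice labelled as 2 months old, from poly-A selected, stranded libraries. The sample labels give the strain as C57BL6/J, while the design text names NCI Ath/nude, which would lack T cells, and the disagreement could not be settled from the labels. Mock-injected mice of the same time (Con, 5 samples) are given for context and carried no tumour cells, so CAC and NCAC share the graft and differ in the melanoma cells used. The labels call the samples biological replicates, but none says that each came from a separate mouse. Each p-value therefore covers only the spread among samples within groups, pooled over all 60 samples of the series. This spread may be technical. No body weight or other measure of wasting was used here, and the name of a tumour line in the extraction text, LLC, matches no group.

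Cachexia is the wasting of fat and muscle that some tumours cause, with anorexia, inflammation and high circulating corticosteroids. Corticosteroids act on the brain through the glucocorticoid receptor, a transcription factor that the hippocampus expresses strongly and that switches on genes such as Fkbp5. Interleukin 6 and its relatives act through receptors that activate the transcription factor STAT3, and the walls of brain vessels are a place where such blood-borne signals first meet brain tissue. Myelin-forming oligodendrocytes, astrocytes and the stem cells of the dentate gyrus are other hippocampal cells known to respond to corticosteroids and inflammation.

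Values are TPM, in which reads are divided by the length of the gene and scaled to a fixed total per library. Differences are CAC minus NCAC on the log2(TPM + 0.5) scale with their standard error (SE), from limma fitted over all 60 samples, and a gene is said to have risen or fallen when its Benjamini-Hochberg adjusted p was under 0.05. The 12 samples had 32388193 to 39110241 recovered reads. Hippocampal identity was checked with Neurod6, a pyramidal neuron transcription factor, at 290.2 to 429.3 TPM in CAC and 293.5 to 362.3 TPM in NCAC, and Prox1, a granule cell transcription factor, at 31.8 to 50.6 TPM in CAC and 35.8 to 43.2 TPM in NCAC. Lists of thalamus, striatum and cortex genes had 0 members past the threshold. That compares the groups and cannot show that such tissue was absent, as an equal share in both would give no difference.

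Of 15608 genes tested, 285 passed the threshold (1.83%), 197 higher in CAC (1.26%) and 88 lower (0.564%). The difference was over 2-fold for 23 of the genes that rose and 8 of those that fell. For 53 of the 197 every CAC sample lay above every NCAC sample, and for 34 of the 88 every CAC sample lay below. Over all genes tested such full separation occurred for 103 and 76. The median difference of all tested genes was 0.02, with 8888 differences positive and 6720 negative. These are the background for the counts of signs in lists below. Members of a list can vary together, so such counts are a description only.

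CAC replicate 3 stood apart from the other 6 CAC samples. It lay within or past the NCAC range for 177 of the 285 genes, against 3 to 38 for each other CAC sample. Its erythrocyte genes were high, with a summed level of 8509 TPM over the 10 genes of that list, against a CAC median of 1002 TPM and an NCAC range of 1184 to 1742 TPM. Without it 714 genes passed, 539 higher and 175 lower, and these held all 285. The part of this sample's blood content in its values was not tested. For some genes and lists that turn on it, results are given below with and without it. Another sample, CAC replicate 6, was low in choroid plexus genes, a list whose summed level ran from 230.4 to 7446 TPM in CAC and from 333.7 to 12720 TPM in NCAC, and which had 0 members past the threshold.

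**Figure D1:**
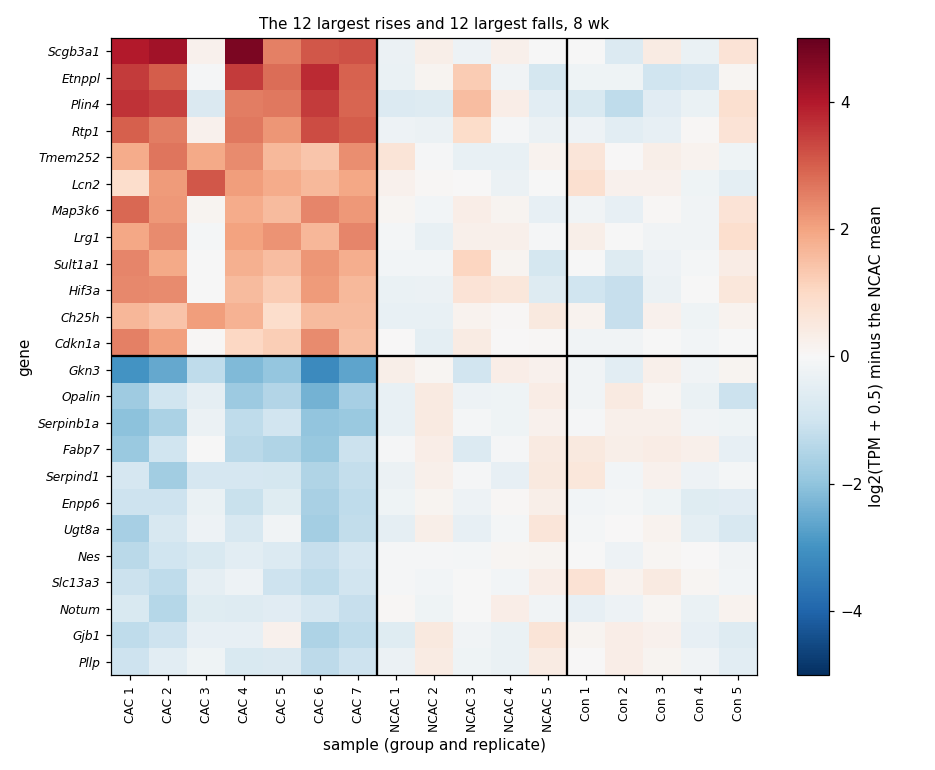
Heat map of the 12 largest rises and 12 largest falls past the threshold, leaving out predicted, clone and pseudogene names and genes with a mean under 1 TPM in the higher group (rows), in the 17 samples of 8 wk (columns, by group and replicate), coloured by log2(TPM + 0.5) minus the NCAC mean. CAC replicate 3 is pale in rows where the other 6 CAC samples are dark, such as Etnppl, at 0.996 TPM in that sample, and dark in Lcn2, at 6.55 TPM.

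The largest rise was that of Scgb3a1, a secreted secretoglobin best known from airway epithelium, which lies on chromosome 11 (GRCm38, 49663610 to 49665118, plus strand). It stood at 0.429, 6.80 and 20.7 TPM in CAC (lowest, median and highest of 7), against 0.157, 0.475, 0.179, 0.462 and 0.298 TPM in NCAC. The other 6 CAC samples lay above every NCAC sample while the lowest, CAC replicate 3, lay within the NCAC range. The difference was 3.13 ± 0.49 (SE; limma adjusted p = 0.000236), and 3.62 without that replicate.

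Etnppl, an enzyme of astrocytes that degrades phosphoethanolamine, had 0.996, 11.9 and 20.1 TPM in CAC (lowest, median and highest), against 0.716, 1.19, 3.23, 0.854 and 0.341 TPM in NCAC. The 6 CAC samples other than replicate 3 held 10.1 to 20.1 TPM, all above NCAC, and the difference was 2.78 ± 0.49 (adjusted p = 0.000921, limma). It was the single member called of 19 in a list of phospholipid and ethanolamine enzymes, whose median difference was 0.03. Over all tested genes 1.83% passed, and at that share a list of this size would hold few or no calls. The choline kinases Chka (0.14 ± 0.07) and Chkb (0.10 ± 0.07) and the ethanolamine kinase Etnk2 (−0.25 ± 0.13) were below the threshold.

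Rtp1, a chaperone that carries odorant receptors to the cell surface, was at 0.740, 6.24 and 9.79 TPM in CAC (lowest, median and highest) and at 0.390, 0.364, 1.54, 0.531 and 0.371 TPM in NCAC. The highest NCAC value was that of replicate 3, and the lowest CAC value was also that of replicate 3 and lay below it. The difference was 2.41 ± 0.45 (adjusted p = 0.00165, limma).

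Plin4, a protein that coats lipid droplets, was at 2.53, 36.9 and 60.4 TPM in CAC (lowest, median and highest) and at 2.60, 2.64, 13.8, 5.80 and 2.90 TPM in NCAC. The CAC samples fell into 6 between 28.5 and 60.4 TPM and replicate 3, which lay below all NCAC samples. The difference of 2.56 ± 0.65 (adjusted p = 0.0261, limma) was 3.11 without that replicate, and it did not pass in 7 of 12 fits with a sample removed or with voom on the recovered reads.

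Tmem252, a membrane protein of little known function, separated the groups fully, at 2.98, 4.45 and 8.05 TPM in CAC (lowest, median and highest) and at 1.56, 0.769, 0.520, 0.523 and 1.01 TPM in NCAC. Its difference was 2.02 ± 0.33 (adjusted p = 0.000344, limma), and here CAC replicate 3 was with the other CAC samples at 4.45 TPM. So was it for Ch25h, the enzyme that makes 25-hydroxycholesterol, with 4.88 TPM in that replicate, a range of 1.86 to 4.88 TPM in CAC and a range of 0.486 to 1.25 TPM in NCAC. Ch25h rose by 1.57 ± 0.30 (adjusted p = 0.00165, limma).

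**Figure D2:**
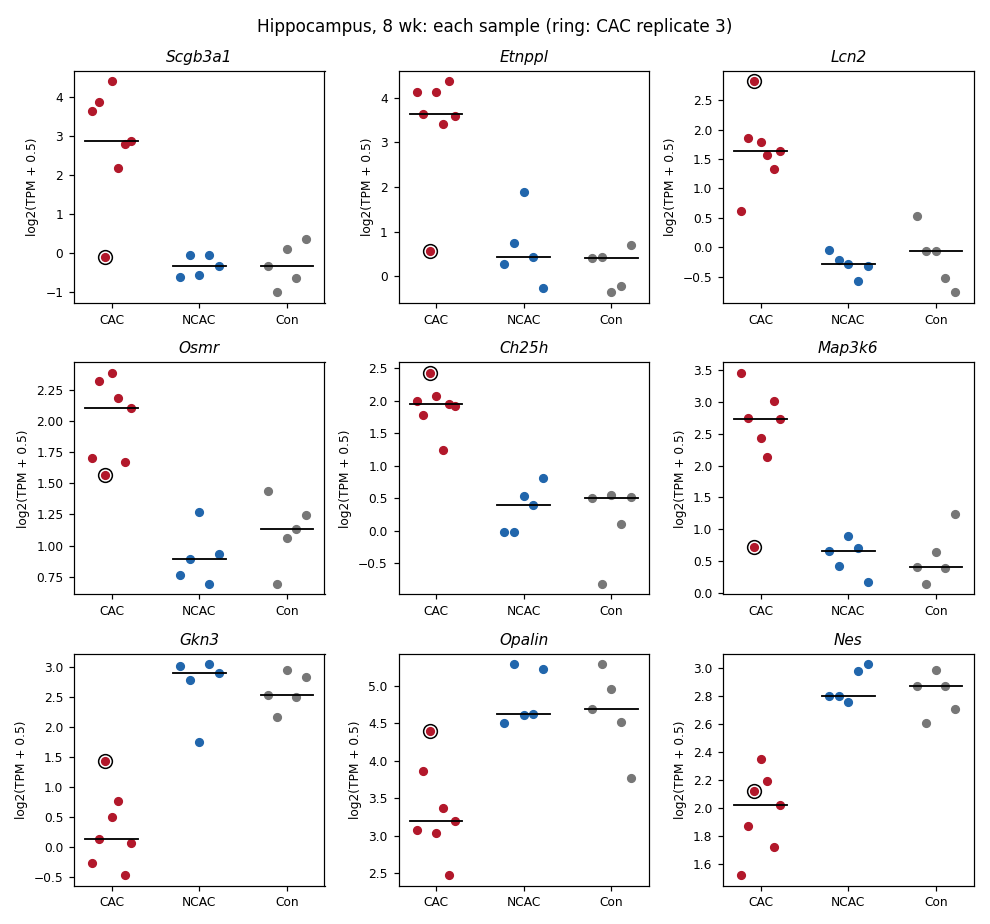
Level of 9 genes as log2(TPM + 0.5) in each sample at 8 wk (CAC, NCAC and Con from left to right; points are samples, bars are medians, the ring marks CAC replicate 3). For Lcn2, Osmr, Ch25h, Gkn3, Opalin and Nes all 7 CAC samples lie on 1 side of all 5 NCAC samples, and for Scgb3a1, Etnppl and Map3k6 6 do.

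Of 34 genes known to respond to glucocorticoids 11 rose and 0 fell, against a background of 1.26% of all tested genes higher. The list's median difference was 0.46, against 0.02 over all genes. A positive difference was seen in 33 of its 34 members and in 8888 of the 15608 genes tested. The list was chosen with earlier results of these data known and is described by its counts. Without CAC replicate 3 the count was 16, with only the compared groups in the fit it was 5, and without any other single sample it lay between 7 and 13. With at least 1 TPM asked of 30 libraries 10 of 33 members rose, with a median of 0.46.

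Among its members, Map3k6, a stress-activated kinase, had 1.15, 6.12 and 10.5 TPM in CAC (lowest, median and highest) and 1.08, 0.843, 1.37, 1.14 and 0.620 TPM in NCAC. The lowest CAC value, replicate 3, was inside the NCAC range and the other 6 were above it, and the difference was 1.89 ± 0.38 (adjusted p = 0.00349, limma). Cdkn1a, which encodes the cell cycle inhibitor p21, had 7.38, 20.8 and 43.3 TPM in CAC and 7.17, 4.85, 9.46, 7.12 and 7.46 TPM in NCAC. Again replicate 3 was the CAC sample that overlapped, and the difference was 1.53 ± 0.31 (adjusted p = 0.00342, limma). Tgm2, a protein-crosslinking transglutaminase, separated the groups fully, at 11, 17.1 and 23.3 TPM in CAC and at 8.64, 9.82, 9.01, 7.55 and 9.54 TPM in NCAC, with a difference of 0.90 ± 0.17 (adjusted p = 0.00146, limma).

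The other members that rose were Lcn2, Sult1a1, Pdk4, Fkbp5, Plin4, Arrdc2, Pnpla2 and Hif3a. Sult1a1, a sulfotransferase of phenols, had 12.6 TPM in CAC replicate 3, between 38.0 and 71.8 TPM in the other CAC samples and between 6.57 and 27.1 TPM in NCAC, a difference of 1.67 ± 0.34. Hif3a, a member of the hypoxia-inducible factor family, rose by 1.62 ± 0.44 (adjusted p = 0.0381, limma), with 5.28 to 30.2 TPM in CAC and 3.23 to 9.02 TPM in NCAC, and this call did not hold in 8 of 12 fits with a sample removed. Fkbp5, a chaperone that dampens the glucocorticoid receptor, was not among the genes named by rule and was added after its values were seen. It averaged 57.1 ± 12.9 TPM in CAC and 30.8 ± 4.39 TPM in NCAC (SD, n = 7 and 5), a difference of 0.85 ± 0.18. Several well-known targets did not pass, among them the kinase gene Sgk1 (0.73 ± 0.21, limma adjusted p = 0.0512), Tsc22d3, which encodes the glucocorticoid-induced leucine zipper (0.46 ± 0.22), and the clock gene Per1 (0.18 ± 0.13), which were also picked after their values were seen.

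The genes of the corticosteroid system itself had 0 of 9 members past the threshold in either direction and a median difference of −0.12. The receptor gene Nr3c1 averaged 37.3 ± 4.13 TPM in CAC and 44.5 ± 2.40 TPM in NCAC (SD, n = 7 and 5). All 7 CAC samples lay below NCAC, with a difference of −0.25 ± 0.09 (adjusted p = 0.108, limma).

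Promoter windows from RefSeq (GRCm38.p6, 250 bases before to 50 after the start) were searched for the palindromic glucocorticoid receptor motif, the half-sites GNACA and TGTNC with 3 bases between them, and the STAT motif TTCNNNGAA, and as both read the same on either strand 1 search covers both. The first was in 0.475% of 32851 windows and the second in 8.298%. Listed genes were counted once each if any of their windows held the motif. Their counts of genes are therefore not like for like with these shares of windows. Of the 34 glucocorticoid list genes 30 had a window, and 3 of those held the first motif, Map3k6, Mt1 and Sgk1. Of the 12 largest rises 11 genes had a window, and 1 of these held the first motif and 1 the second. Of the 30 glucocorticoid list genes with a window 5 held the second (16.7% of genes). These were Bcl6, Klf9, Per1, Sgk1 and Tsc22d3, none of which passed the threshold. The 4 windows below are those that hold a motif among the largest rises and the genes of this and the interleukin 6 and STAT3 list that rose, shown 5′ to 3′ with the motif in capitals: that of the glucocorticoid receptor in Map3k6 (chr4:133240568-133240867, plus strand) and Serpina3n (chr12:104406458-104406757, plus strand), and that of STAT in Socs3 (chr11:117969317-117969616, minus strand) and Scgb3a1 (chr11:49663345-49663644, plus strand).
Map3k6: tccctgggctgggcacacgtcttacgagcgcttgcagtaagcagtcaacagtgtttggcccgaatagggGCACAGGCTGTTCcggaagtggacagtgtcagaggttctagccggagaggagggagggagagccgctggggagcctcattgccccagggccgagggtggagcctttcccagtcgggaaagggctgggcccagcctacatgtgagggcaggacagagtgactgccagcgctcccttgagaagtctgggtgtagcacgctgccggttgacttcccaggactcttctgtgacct
Serpina3n: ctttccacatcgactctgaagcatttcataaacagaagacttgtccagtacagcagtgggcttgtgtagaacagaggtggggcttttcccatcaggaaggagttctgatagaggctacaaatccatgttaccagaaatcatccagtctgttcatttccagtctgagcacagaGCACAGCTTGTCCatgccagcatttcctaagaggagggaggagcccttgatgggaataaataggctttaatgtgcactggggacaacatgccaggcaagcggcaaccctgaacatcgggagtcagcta
Socs3: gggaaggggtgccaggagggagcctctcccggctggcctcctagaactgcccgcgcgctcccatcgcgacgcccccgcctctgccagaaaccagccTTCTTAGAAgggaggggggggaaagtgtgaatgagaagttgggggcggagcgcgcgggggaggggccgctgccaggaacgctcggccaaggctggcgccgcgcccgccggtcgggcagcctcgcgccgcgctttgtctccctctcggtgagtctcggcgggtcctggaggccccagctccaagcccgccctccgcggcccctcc
Scgb3a1: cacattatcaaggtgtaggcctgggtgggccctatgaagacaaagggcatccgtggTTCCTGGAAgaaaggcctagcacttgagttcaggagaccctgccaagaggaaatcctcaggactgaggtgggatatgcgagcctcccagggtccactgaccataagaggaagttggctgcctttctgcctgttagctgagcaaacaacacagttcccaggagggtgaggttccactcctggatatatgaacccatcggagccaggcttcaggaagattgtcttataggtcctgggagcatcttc
Among the 10 glucocorticoid list genes that rose and had a window, 1 held the first motif and 0 the second, and among the 10 such genes of the interleukin 6 and STAT3 list 1 held the first and 1 the second. A match is a description of the letters and says nothing of binding.

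The list of interleukin 6, STAT3 and acute phase genes had 23 members, of which 15 passed the filter on low values, and 10 of these rose and 0 fell, against 1.26% of all tested genes higher. Members such as Lcn2 passed the filter through samples in which they were high, so the median of the 15, 0.56, is not that of the list. With no filter 8 of the 23 rose, with a median of 0.28, and with at least 1 TPM asked of 30 libraries 6 of 9 rose, with a median of 0.38. The 8 members under the filter include the ligands Il6, Lif and Osm. Over all 23 the mean log2(TPM + 0.5) per sample was 1.37 to 1.79 in CAC and 1.01 to 1.28 in NCAC, and all 7 CAC samples, replicate 3 included, lay above all 5 NCAC samples. The count among the 15 was 11 without CAC replicate 3, 6 with only the compared groups, and 6 to 9 without any other single sample.

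Among the receptors, Osmr, the oncostatin M receptor, had 2.46, 3.81 and 4.73 TPM in CAC (lowest, median and highest), against 1.2, 1.35, 1.91, 1.12 and 1.41 TPM in NCAC. Il6ra, the ligand-binding chain of the interleukin 6 receptor, had 4.71, 5.74 and 6.78 TPM in CAC, against 3.88, 3.41, 4.26, 3.38 and 3.79 TPM in NCAC. Neither gene's groups overlapped, and the differences were 1.08 ± 0.16 for Osmr and 0.56 ± 0.08 for Il6ra (limma adjusted p = 0.000105 for each). The interleukin 1 receptor Il1r1 rose by 0.66 ± 0.14, with 11.6 to 18.3 TPM in CAC and 7.55 to 10.6 TPM in NCAC.

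Among the targets, Lcn2, a secreted protein that binds bacterial siderophores and is released in inflammation, had 1.02, 2.61 and 6.55 TPM in CAC (lowest, median and highest) and 0.464, 0.361, 0.326, 0.175 and 0.306 TPM in NCAC. The groups did not overlap, replicate 3 was the highest CAC sample, and the difference was 1.94 ± 0.32 (adjusted p = 0.000293, limma). Lrg1, a secreted glycoprotein that acts on TGF-beta signalling in vessels, had 0.633, 4.36 and 6.08 TPM in CAC and 0.624, 0.420, 0.949, 0.954 and 0.660 TPM in NCAC, and the 6 CAC samples other than replicate 3 began at 3.27 TPM. Its difference was 1.80 ± 0.32 (adjusted p = 0.00105, limma).

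Socs3, the feedback inhibitor of STAT3 signalling, Bcl3, an NF-kappaB cofactor, and Lifr, the receptor of leukaemia inhibitory factor, rose by 0.82 ± 0.19, 0.84 ± 0.20 and 0.36 ± 0.10, and were taken up after their values were seen. Their calls did not hold in 2, 4 and 11 of 12 fits with a sample removed, and none held with only the compared groups in the fit. That of Lifr was also lost with no filter on low values. Serpina3n, a protease inhibitor of reactive astrocytes, was at 219.8 to 289.3 TPM in CAC and 167.4 to 214.4 TPM in NCAC. It rose by 0.38 ± 0.10 (adjusted p = 0.0346, limma), a call that did not hold in 7 of 12 fits with a sample removed. The Serpina3 genes are close copies of each other and can exchange reads.

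The complement list had 2 of 13 members higher and 0 lower, against 1.26% of all tested genes higher. All 13 differences were positive, with a median of 0.26. With no filter 2 of 14 rose, and with at least 1 TPM asked of 30 libraries 2 of 12 did, each with a median of 0.22. With only the compared groups in the fit 1 of the 13 rose. C4b, a complement component, had 54.4, 73.6 and 97.1 TPM in CAC (lowest, median and highest) and 29.1, 35.2, 44.6, 28.8 and 47.9 TPM in NCAC, with no overlap. Its difference was 1.01 ± 0.21 (adjusted p = 0.00488, limma). C4a rose by 0.60 ± 0.16, and as it is a near-identical neighbour of C4b on chromosome 17 the reads of the pair can be split either way, and its call did not hold in 4 of 12 fits with a sample removed. Reactive astrocyte genes had 3 of 18 higher, namely Osmr, Lcn2 and Serpina3n, and 0 lower. The interferon and MHC class I list had 0 of 26 past the threshold, with a median of −0.04, and the activated microglia list 0 of 13, with a median of −0.10.

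In the vessel wall, the list of venous and activated endothelium had 12 members, of which 10 passed the filter on low values, and 4 of these rose and 0 fell, against 1.26% of all tested genes higher. These were Tmem252, Lrg1, Ch25h and Il1r1, of which the last 3 are also on the interleukin 6 and STAT3 list. Members under 1 TPM in most NCAC samples passed the filter through samples in which they were high, and the median of the 10 was 0.39. With no filter 4 of 12 rose, with a median of 0.31, and with at least 1 TPM asked of 30 libraries 2 of 8 did, with a median of 0.27. The count was 3 or 4 in every fit that left out a sample, and the call of Il1r1 did not hold in 1 of these 12. The capillary and barrier list had 4 of 24 higher and 0 lower, with a median of 0.02, and 7 higher and 2 lower without CAC replicate 3. Ly6c1, a surface protein of brain capillaries, had 48.6, 77.2 and 85.1 TPM in CAC (lowest, median and highest) and 40.8, 48.5, 41.4, 45.9 and 48.3 TPM in NCAC, and rose by 0.71 ± 0.12 (adjusted p = 0.000366, limma). Its lowest CAC value was that of replicate 3, just above the highest NCAC value. Ly6a, a related surface protein whose sequence resembles that of its neighbours, rose by 1.22 ± 0.27, with 13.5 to 31.7 TPM in CAC and 8.25 to 12.8 TPM in NCAC. Vwf, the von Willebrand clotting factor, rose by 1.06 ± 0.24, with 4.18 to 12.8 TPM in CAC and 2.89 to 4.43 TPM in NCAC, and Slco1a4, a barrier transporter of organic anions, rose by 0.36 ± 0.10, a call that did not hold in 9 of 12 fits with a sample removed.

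The largest fall was that of a vessel gene. Gkn3, a marker of arterial endothelium in mouse brain (chromosome 6, 87383256 to 87388935, minus strand), had 0.22, 0.594 and 2.20 TPM in CAC (lowest, median and highest) and 7.55, 6.41, 2.87, 7.74 and 6.98 TPM in NCAC. All CAC samples lay below all NCAC samples, with CAC replicate 3 the highest CAC sample and NCAC replicate 3 the lowest NCAC sample. The difference was −2.40 ± 0.36 (adjusted p = 0.000105, limma). It was the only 1 of 13 arterial genes that passed, against 1.83% of all tested genes, and the list's median was −0.04. In these tissue samples fewer cells of a type and less RNA per cell cannot be told apart.

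Of 17 angiogenic genes 2 fell and 0 rose, against 0.564% of all tested genes lower, with a median of −0.07. Apln, the apelin peptide of vessel tips, had 5.36 to 13 TPM in CAC and 9.66 to 17.7 TPM in NCAC and fell by 0.76 ± 0.15 (SE; limma adjusted p = 0.00349). Vegfa, the vascular endothelial growth factor, had 29.0, 35.5 and 59.7 TPM in CAC (lowest, median and highest) and 55.8, 52.3, 42.6, 52.1 and 52.6 TPM in NCAC. CAC replicate 3 held the highest value of all 12 samples while the other 6, at up to 37.4 TPM, lay below NCAC, and the difference was −0.46 ± 0.12 with it and −0.57 without it. The call of Vegfa did not hold in 8 of 12 fits with a sample removed, and neither gene passed with only the compared groups in the fit, which left 0 of the list called. Pericyte and smooth muscle genes and meningeal fibroblast genes had 0 of 14 past the threshold each, although all 14 differences were negative in either list, with medians of −0.19 and −0.39.

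**Figure D3:**
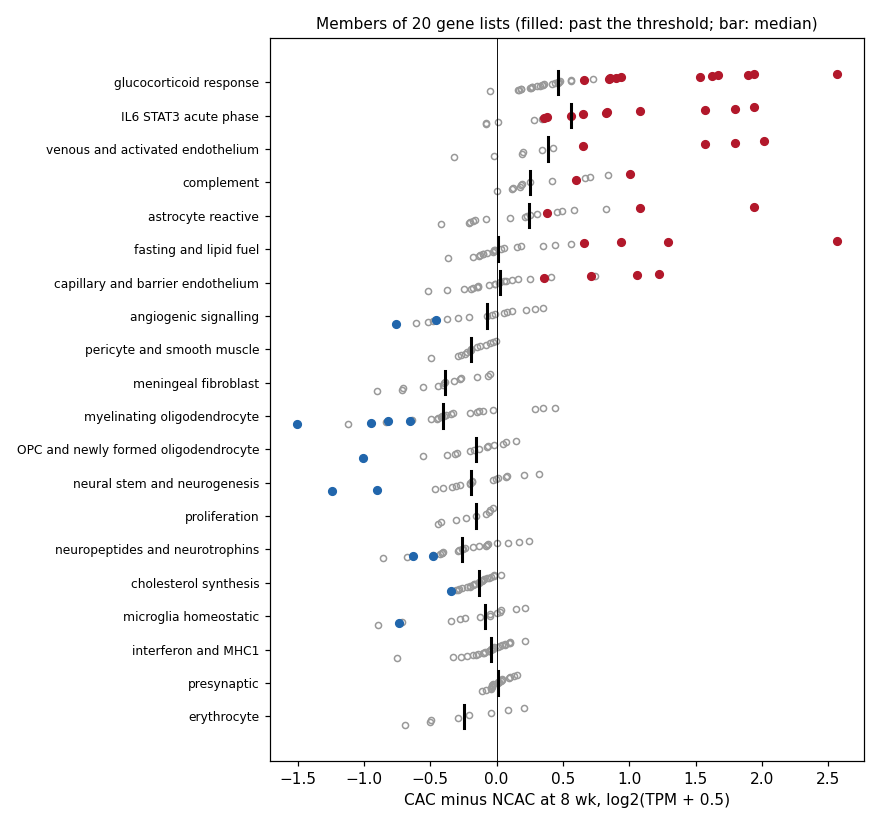
Differences CAC minus NCAC at 8 wk, on the log2(TPM + 0.5) scale, for the members of 20 gene lists (points; filled red rose, filled blue fell, open did not pass; black bars are medians of the members that passed the filter on low values). The glucocorticoid, IL6 and STAT3, and venous lists have medians of 0.46, 0.56 and 0.39, and the myelinating oligodendrocyte list has −0.41.

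Of 24 genes of myelinating oligodendrocytes 4 fell and 0 rose, against a background of 0.564% of genes lower, and the median difference was −0.41. Opalin, an oligodendrocyte membrane protein (chromosome 19, 41061710 to 41077113, minus strand), had 5.06, 8.64 and 20.5 TPM in CAC (lowest, median and highest) and 22.1, 38.4, 23.9, 24.2 and 37.0 TPM in NCAC. The groups did not overlap, and the difference was −1.51 ± 0.32 (adjusted p = 0.0077, limma). Con samples ran from 13.2 to 38.4 TPM and so reached into the CAC range.

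The other members that fell were Ugt8a, which makes the galactolipids of myelin (−0.95 ± 0.25), the gap junction gene Gjb1 (−0.82 ± 0.23) and Aspa, the aspartoacylase (−0.65 ± 0.16), each with some overlap between the groups, and these calls did not hold in 6, 7 and 6 of 12 fits with a sample removed. The myelin count was 7 lower and 1 higher without CAC replicate 3, 1 lower with only the compared groups, and between 1 and 7 lower without any other single sample. The summed level of the list was 1820 to 4823 TPM in CAC and 2587 to 4179 TPM in NCAC, so the abundant myelin genes overlapped: Mbp, the myelin basic protein, averaged 543.8 ± 124.2 TPM in CAC and 691.7 ± 165.4 TPM in NCAC (SD, n = 7 and 5), and its difference of −0.34 ± 0.15 did not pass.

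Against 0.564% of all tested genes lower, 1 of 14 genes of oligodendrocyte precursors and newly formed cells fell and 0 rose. That was Enpp6, an enzyme of newly formed oligodendrocytes, with 0.809, 1.48 and 2.71 TPM in CAC (lowest, median and highest) and 3.04, 3.92, 2.90, 3.71 and 4.48 TPM in NCAC, with no overlap and a difference of −1.01 ± 0.20 (adjusted p = 0.00292, limma). Pllp, a myelin proteolipid named for its size of change, fell by 0.81 ± 0.19, a call that did not hold in 3 of 12 fits with a sample removed.

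Among genes of neural stem cells and neurogenesis, 2 of 18 fell and 0 rose, against 0.564% of all tested genes lower, with a median of −0.19. Nes, the intermediate filament nestin of stem cells and of vessel walls, had 2.37, 3.56 and 4.59 TPM in CAC (lowest, median and highest) and 6.46, 6.48, 6.26, 7.37 and 7.64 TPM in NCAC. The groups did not overlap, and the difference was −0.90 ± 0.15 (adjusted p = 0.000527, limma). Fabp7, a fatty acid carrier found in radial glia and in astrocytes, had 15.8, 23.3 and 59.9 TPM in CAC and 58.8, 76.9, 37.1, 58.8 and 83.0 TPM in NCAC. CAC replicate 3 and NCAC replicate 3 overlapped, and the difference was −1.24 ± 0.27 (adjusted p = 0.00748, limma). The call of Fabp7 did not hold with only the compared groups in the fit, which left 1 of the 18 called. Proliferation genes had 0 of 9 past the threshold and all 9 differences negative.

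Astrocyte genes past the threshold went in both directions. Of 19 genes of resting astrocytes 2 rose, Etnppl and the glycolytic enzyme Aldoc, and 1 fell, the water channel Aqp4, with a median of −0.02. Over all tested genes 1.26% were higher and 0.564% lower. With only the compared groups in the fit 1 of the 19 rose and 0 fell, and the calls of Aldoc and Aqp4 did not hold. Aldoc had 605.5 to 925.3 TPM in CAC and 580.9 to 699.8 TPM in NCAC (difference 0.32 ± 0.07), and Aqp4 had 41.8 to 107.1 TPM in CAC and 75.6 to 122.8 TPM in NCAC (difference −0.61 ± 0.15). CAC replicate 3 was the lowest CAC sample for Aldoc and the highest for Aqp4, so it was on the NCAC side of both. The glutamate receptor Grm3 was the 1 of 21 glutamate receptor genes that passed, and fell by 0.73 ± 0.17. The calls of Aqp4 and Grm3 did not hold in 4 and 3 of 12 fits with a sample removed.

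Of the 8 genes that fell over 2-fold, Gkn3, Opalin, Fabp7 and Enpp6 are described above, and Gm9946 (−1.08 ± 0.26) and Gm13293 (−1.01 ± 0.23) have only predicted-gene names. Serpinb1a, an inhibitor of neutrophil proteases, had 2.67, 3.93 and 10.2 TPM in CAC (lowest, median and highest) and 9.60, 17.4, 11.7, 10.9 and 14.9 TPM in NCAC. Only CAC replicate 3 overlapped, and the difference was −1.42 ± 0.23 (adjusted p = 0.000293, limma). Serpind1, the thrombin inhibitor heparin cofactor (−1.13 ± 0.28), Slc13a3, a dicarboxylate transporter (−0.90 ± 0.25), and Notum, an enzyme that inactivates Wnt proteins (−0.86 ± 0.14), had no overlap between the groups. The calls of Serpind1 and Slc13a3 did not hold in 4 and 9 of 12 fits with a sample removed, and that of Slc13a3 with voom.

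Counts in the fuel and stress lists are set beside the 1.26% of all tested genes that were higher. In the list of fasting and lipid use 4 of 22 rose and 0 fell, with a median of 0.01. Acer2, a ceramidase, had 8.18 to 12.6 TPM in CAC and 2.53 to 5.01 TPM in NCAC and rose by 1.29 ± 0.25 with full separation. Pdk4, the kinase that shuts off pyruvate dehydrogenase in fasting, had 16.3 to 41.1 TPM in CAC and 13.5 to 18.2 TPM in NCAC and rose by 0.94 ± 0.19. The triglyceride lipase Pnpla2 rose by 0.66 ± 0.17, a call that did not hold in 6 of 12 fits with a sample removed, and Plin4 is the fourth. Of 15 targets of p53 3 rose, Cdkn1a, Sesn1 and Plk2, and 0 fell, and Plk2 (0.23 ± 0.06) lost its call under median-of-ratios scaling, with the trend on GC content and length removed, and with voom. The calls of Plk2 and Sesn1 did not hold in 9 and 8 of 12 fits with a sample removed, and the p53 count was 5 without CAC replicate 3, 1 with no filter on low values and 0 with only the compared groups. Of 19 FoxO and insulin genes 1 rose, the transcription factor gene Foxo3 (0.28 ± 0.07), a call that did not hold in 8 of 12 fits with a sample removed or with only the compared groups, while 4 rose without CAC replicate 3. The cold-inducible RNA-binding protein gene Rbm3 rose by 0.52 ± 0.14, with 101.9 to 158.2 TPM in CAC and 62.0 to 145.1 TPM in NCAC, so that only 3 CAC samples lay above all NCAC samples, and its call did not hold in 8 of 12 fits with a sample removed.

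Set against 1.26% of all tested genes higher and 0.564% lower, iron genes had 3 of 15 higher and 2 lower. Those higher were Lcn2, the zinc and iron importer gene Slc39a14 and the ferroxidase gene Heph. The iron exporter gene Slc40a1 was among those lower, with 3.43 to 5.64 TPM in CAC and 6.04 to 8.16 TPM in NCAC (difference −0.57 ± 0.13), fully separated. The iron list had 2 higher and 1 lower with no filter, and 1 higher and 0 lower with only the compared groups. With at least 1 TPM asked of 30 libraries it had 2 of 14 higher and 2 lower. Cholesterol synthesis had 1 of 23 lower, Hmgcs1, and 22 of 23 differences negative, with a median of −0.13. The calls of Heph, Slc39a14 and Slc40a1 did not hold in 8, 2 and 1 of 12 fits with a sample removed. That of Hmgcs1 did not hold in 9 of 12, with no filter or with only the compared groups, which leaves 0 of its list called, and without CAC replicate 3 the list had 3 lower.

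Counts in the neuronal lists are set beside the 1.83% of all tested genes that passed. At that share lists of this size would hold few or no calls. Of 23 neuropeptide and neurotrophin genes 2 fell and 0 rose, with a median of −0.26. Npy, neuropeptide Y of hippocampal interneurons, had 69.2, 75.1 and 97.0 TPM in CAC (lowest, median and highest) and 128.5, 122.9, 118.9, 124.2 and 134.2 TPM in NCAC, with no overlap and a difference of −0.63 ± 0.13 (adjusted p = 0.00748, limma). Bdnf, a neurotrophin, fell by 0.48 ± 0.13, with 11.8 to 21.5 TPM in CAC and 18.5 to 24.6 TPM in NCAC. Presynaptic genes (18), potassium channels (21), monoamine receptors (20), GABA and interneuron genes (19) and immediate early genes (19) each had 0 members past the threshold. Spink8, a CA1 pyramidal marker, was the 1 of 11 CA1 genes that passed and rose by 0.59 ± 0.15. Of 14 genes of resting microglia 1 fell, the purine receptor gene P2ry13 (−0.74 ± 0.18). The calls of Bdnf, Spink8 and P2ry13 did not hold in 5, 6 and 5 of 12 fits with a sample removed.

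**Figure D4:**
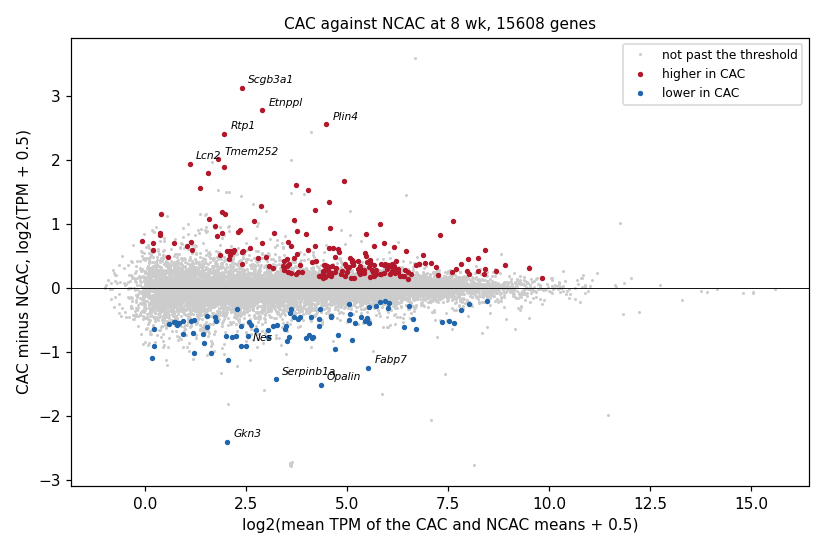
Difference CAC minus NCAC at 8 wk, on the log2(TPM + 0.5) scale, against the mean level of each of the 15608 genes tested; red points rose (197), blue points fell (88), grey points did not pass. Grey points as far from 0 as the named genes are genes that varied more between samples.

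The same contrast at earlier times uses other samples. At 6 wk 276 genes passed (1.77%), at 4 wk 2 (0.0128%) and at 2 wk 0 (0%), where 1083 had an unadjusted p under 0.05 and voom on the recovered reads also called 0. Of the 285 genes of 8 wk, 279 had the same sign at 6 wk (97.89%) and 268 at 4 wk (94.04%), against 71.89% and 64.22% of all tested genes. At 2 wk 111 did (38.95%, against 53.18%). The median difference of the genes that rose at 8 wk was −0.02, 0.15, 0.29 and 0.38 at 2, 4, 6 and 8 wk, and that of the genes that fell was 0.11, −0.27, −0.28 and −0.56. Both 6 wk and 8 wk called 59 genes, all with the same sign, which is 20.7% of the calls of 8 wk and 21.38% of those of 6 wk. CAC samples of 2 and 4 wk include 4 that are rich in striatum or erythrocyte genes, and the median difference of the striatum list was 0.99 at 2 wk and 0.82 at 4 wk, against 0.00 at 8 wk. The part of this in the earlier values was not tested.

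**Figure D5:**
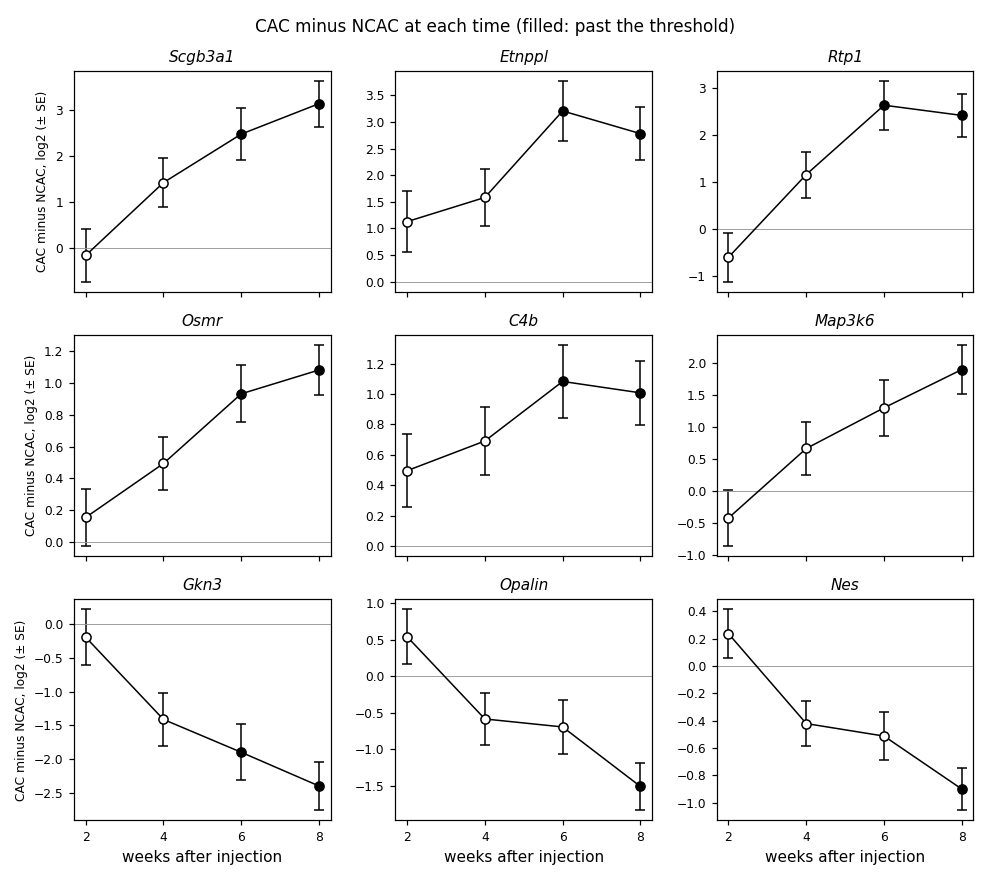
CAC minus NCAC difference, on the log2(TPM + 0.5) scale (± SE), of 9 genes at 2, 4, 6 and 8 wk; filled points passed the threshold at that time. Scgb3a1 runs from −0.16 to 3.13 and Gkn3 from −0.20 to −2.40.

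By gene, Scgb3a1 differed by −0.16, 1.42, 2.47 and 3.13 at 2, 4, 6 and 8 wk, and Gkn3 by −0.20, −1.41, −1.90 and −2.40, with both past the threshold at 6 and 8 wk. Etnppl differed by 1.13, 1.58, 3.21 and 2.78, and Osmr by 0.15, 0.49, 0.93 and 1.08. Opalin differed by 0.54, −0.58, −0.69 and −1.51, and passed only at 8 wk. Npy differed by −0.22, −0.11 and −0.12 at 2, 4 and 6 wk.

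The change of the difference from 2 wk to 8 wk was tested as an interaction, and 37 genes passed (0.237%), 20 upward and 17 downward. Of the genes named here, Scgb3a1 (3.29 ± 0.75), Rtp1 (3.01 ± 0.69), Tmem252 (2.27 ± 0.51), Spink8 (1.33 ± 0.23), Ly6c1 (0.82 ± 0.18) and Il6ra (0.65 ± 0.13) changed upward. Serpinb1a (−1.80 ± 0.35), Enpp6 (−1.42 ± 0.30) and Nes (−1.14 ± 0.24) changed downward. For Spink8 the difference at 2 wk was itself −0.74 ± 0.17. This count rested on few samples: it was 1 without CAC replicate 1 of 2 wk, CAC replicate 5 of 2 wk, NCAC replicate 2 of 8 wk or NCAC replicate 5 of 8 wk, 8 or 9 without replicate 1, 2 or 4 of NCAC at 2 wk, and 12 to 16 without CAC replicate 1, 2, 6 or 7 of 8 wk. It was 138 without CAC replicate 3 of 8 wk and 123 without CAC replicate 2 of 2 wk, and 57 to 66 without CAC replicate 5, NCAC replicate 3 or NCAC replicate 4 of 8 wk.

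Set beside mock-injected mice, which share the CAC or the NCAC samples with the main comparison, CAC differed from Con in 2256 genes (14.5%) at 8 wk and NCAC in 0 (0%), where 1226 had an unadjusted p under 0.05 and voom also called 0. The median differences of the 197 were 0.38 for CAC minus NCAC, 0.36 for CAC minus Con and −0.01 for NCAC minus Con, and of the 88 they were −0.56, −0.49 and 0.06. As the genes were chosen for their CAC values, which both contrasts share, the values against Con are a description and no independent support. Scgb3a1 had 0.295, 0, 0.578, 0.145 and 0.787 TPM in the Con samples, and Gkn3 had 5.25, 4.01, 7.26, 5.18 and 6.59 TPM. For the complement list the medians were 0.26 for CAC minus NCAC, −0.05 for CAC minus Con and −0.32 for NCAC minus Con, and the values against Con rested in part on Con replicate 5. That sample's mean log2(TPM + 0.5) over the list was 3.67, against 2.75 to 2.86 in the other Con samples and 2.86 to 3.09 in CAC, and it held 2.39 TPM of the complement factor gene Cfb, against 0.0923 to 0.581 TPM in the other Con samples. Without it the medians against Con were 0.05 for CAC and −0.19 for NCAC, so the first changed sign, and 1616 and 0 genes passed in all.

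Marker lists of other tissues were measured beside these groups. The leukocyte list (T, B and neutrophil genes) had a summed level of 16.7 to 32.3 TPM in CAC and 27.6 to 41.5 TPM in NCAC over 24 genes, of which 3 were at 0 in every CAC sample and 5 in every NCAC sample, and 9 passed the filter on low values. The melanocyte list summed to 92.3 to 120.6 TPM in CAC and 96.6 to 109.4 TPM in NCAC. Nuclear genes of oxidative phosphorylation summed to 7012 to 8763 TPM in CAC and 8185 to 8668 TPM in NCAC, and ribosomal protein genes to 11180 to 13890 TPM in CAC and 13200 to 14380 TPM in NCAC. These 4 lists had 0 members past the threshold, and their part in the results was not tested.

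The number of genes past the threshold was 72 to 474 when any sample other than CAC replicate 3 was left out. The lowest count was that without NCAC replicate 5, and the count moved by over 1.5 times also without replicate 1, 2, 6 or 7 of CAC (146, 142, 114 and 154) and without NCAC replicate 2 or 4 (105 and 165), and without NCAC replicate 3 (474). Of the 24 largest changes 17 passed in every fit that left out a sample, and all 24 kept their direction.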

How the data were processed

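Hippocampal RNA-seq of 60 samples was used, and 12 of them, CAC (7) and NCAC (5) at 8 wk, were compared. The authors deposited 1 table of TPM for 47643 gene symbols, in which each library sums to the same total. Per the labels' protocols, Trizol was used for extraction, a stranded TruSeq kit with poly-A selection for the libraries, and an Illumina NovaSeq instrument for sequencing. The build was mm10, per the submitters' processing notes, while aligner, counting tool, gene annotation and strand setting were not given in the sources used here. Values are relative to each library's total, so abundant genes that change shift all others. Whole reads were recovered from the steps of the TPM values for all 24227 genes above 0 (100.0%, tolerance 0.02 of a read), and their sums gave 32388193 to 42046796 reads per library. Intervals and errors come from the spread between samples.

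Genes with at least 1 TPM in at least 4 libraries (15608) were tested on log2(TPM + 0.5) by limma (version 3.58.1, R 4.3.3), with an intensity trend for the variance, as 12 group means over all 60 libraries, and with Benjamini-Hochberg adjustment at 0.05. This scale understates the change of low genes. The script was tested on simulated data. The same model gave the contrasts at other times, against Con and the change from 2 wk to 8 wk. Named genes were the 12 largest positive and 12 largest negative differences past the threshold, without predicted, clone or pseudogene names and with a mean of at least 1 TPM in the higher group, and up to 4 members with the smallest p of each of 54 gene lists. A gene chosen by the list part of this rule is not reported here. Genes named outside this rule are said to be so. Members and lists were chosen with earlier results of these data known, and lists overlap and are described by counts and medians only.

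Alternatives were the pseudocount (0.1 and 1), the filter (none, or 30 libraries), only the compared groups, median-of-ratios scaling, a replicate block, correction of each library for GC content and gene length (splines of 5 degrees of freedom, 15037 genes or 96.34%), no intensity trend, leaving out each sample, and leaving out 6 rich libraries, whose mean log2 of striatum or erythrocyte genes lay over 1 above the median library. Added after seeing the data were voom on the recovered reads, list counts under each setting, list means over all members, the calls of genes named outside the rule under each setting, and the contrasts against Con without Con replicate 5. Promoter windows are RefSeq's (GRCm38.p6), and gene positions are those of GENCODE M21 (GRCm38), the same assembly as mm10. Replicate numbers did not pair the samples.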

Additional observations from a re-analysis of the deposited data

Results flagged for a closer look

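For the 209 named genes, CAC and NCAC at 8 wk were each checked for a sample far from the others of its group, 418 checks in all, and Con was not checked. There were 40 flags, where chance flags about 1 in 20 checks, and 14 of them fell on CAC replicate 3. Values are TPM, with the range of the other samples of the same group.

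In CAC replicate 3, Etnppl was 0.996 (others 10.1 to 20.1), Plin4 2.53 (28.5 to 60.4), Rtp1 0.740 (4.38 to 9.79), Lrg1 0.633 (3.27 to 6.08) and Sult1a1 12.6 (38.0 to 71.8). The endothelial genes Ly6c1 and Ly6a were 48.6 (73.0 to 85.1) and 13.5 (23.3 to 31.7), and the glucose transporter gene Slc2a1 was 79.2 (101.9 to 122.9). Heph was 2.89 (5.59 to 8.05), Sesn1 61.5 (77.3 to 90.2), Foxo3 24.4 (others up to 34.7) and Gpr161 40.3 (53.4 to 61.9). Vegfa, at 59.7 (29.0 to 37.4), and mt-Nd2, at 10720 (8847 to 9445), were high in it. Each of these 14 values lies beyond the other 6 CAC samples in the direction of the NCAC median.

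CAC replicate 2 was low in 5 genes, with mt-Nd3 at 1918 (2971 to 3872), mt-Nd6 at 86.6 (141.1 to 183.5), Cox7c at 129.5 (208.6 to 257.6), Ndufa1 at 95.4 (185.7 to 216.2) and Mt3 at 225.3 (555.0 to 676.0). CAC replicate 6 was low in the choroid plexus genes Ttr at 101.3 (1976 to 5475) and Slc4a5 at 0.275 (6.81 to 18.8), and in Rarres2 at 3.82 (5.81 to 7.66) and Igtp at 1.72 (2.70 to 3.60). CAC replicate 4 was high in the interferon gene Ifit3 at 17.6 (7.20 to 9.81) and the macrophage gene F13a1 at 3.43 (0.849 to 1.63), and CAC replicate 1 was low in Dhcr7 at 18.3 (23.3 to 27.1).

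NCAC replicate 3 was high in Rtp1 at 1.54 (0.364 to 0.531), Ncoa1 at 95.7 (81.3 to 84.2) and Mitf at 7.93 (4.17 to 4.66), and low in Gkn3 at 2.87 (6.41 to 7.74), Vegfa at 42.6 (52.1 to 55.8) and Dhcr7 at 22.5 (29.4 to 32.8). NCAC replicate 5 was high in Slc13a3 at 7.86 (5.50 to 5.92), Mt3 at 903.5 (576.5 to 605.4), Foxo3 at 27.7 (25.1 to 25.6), mt-Nd3 at 4913 (3836 to 3928) and Nr3c1 at 48.7 (42.9 to 44.1), and low in Plk2 at 201.1 (246.7 to 252.6). Pvalb in NCAC replicate 1 was 124.9 (84.1 to 92.6), and Mgp in NCAC replicate 2 was 18.7 (23.1 to 24.9).

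The CAC minus NCAC difference changed between 2 wk and 8 wk for 9 named genes by the interaction test. The changes were 3.29 for Scgb3a1, 3.01 for Rtp1, 2.27 for Tmem252, 1.33 for Spink8, 0.82 for Ly6c1 and 0.65 for Il6ra, and −1.80 for Serpinb1a, −1.42 for Enpp6 and −1.14 for Nes.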

How the results depend on the processing

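The number of genes that differed between CAC and NCAC at 8 wk was 285. It was within 1.5 times under either pseudocount (287 each), without a filter (220), with the filter at 30 libraries (277), with median-of-ratios scaling (349), without the intensity trend (264) and with voom (357). It was 83 with only the compared groups (67 of them shared with the 285), 460 with the trend on GC content and length removed (251 shared), and 1170 without the 6 rich libraries. CAC replicate 3 of 8 wk is 1 of these 6, so the fits without the rich libraries lack it. Without that sample alone the count was 714. Leaving out a sample gave 72 to 714. The 37 genes whose difference changed from 2 wk to 8 wk became 16 without a filter, 75 with only the compared groups, 93 with median-of-ratios scaling, 113 with the GC and length trend removed, 212 without the rich libraries and 77 with voom, and 1 to 138 when a sample was left out. The cause of these shifts was not tested.

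With the replicate number as a replicate block and only the compared groups, in which CAC replicates 6 and 7 have no NCAC partner, the counts were 0 (1457 at an unadjusted p under 0.05) and 7. Same-numbered samples correlated between −0.14 and 0.16 in their deviations, and only replicate 5 correlated best with its own number, so the numbers do not pair the samples. Of the 56 named genes past the threshold, 29 passed in every fit that left out a sample, 28 did not pass with only the compared groups and 56 did not under the block. Cdkn1a, Sult1a1, Fabp7 and Aldoc were among those 28. Plk2 was lost with the GC and length trend removed and with median-of-ratios scaling, and Plin4, Slc13a3 and Plk2 with voom. None of the 56 changed sign under any setting run. No depth limit applies to the larger genes, but Scgb3a1 and Lcn2 stood under 1 TPM in NCAC, where the pseudocount shrinks the difference.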

Other observations

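Among the 285 genes, 230 were on none of the 54 lists. The genes below were picked from these after their values were seen. Fas, the death receptor, rose, with 4.99 ± 1.52 TPM in CAC and 1.88 ± 0.36 TPM in NCAC (SD, n = 7 and 5), a difference of 1.16 ± 0.19 (SE; limma adjusted p = 0.000293) and all 7 CAC samples above NCAC. Sparc, a matrix glycoprotein that microglia and vessels make in brain, was 410.6 ± 61.9 TPM in CAC and 269.2 ± 21.3 TPM in NCAC, also with full separation (0.60 ± 0.11). The endothelial surface genes Podxl and Cd34 rose by 0.57 ± 0.12 and 0.48 ± 0.10, each above NCAC in 6 of 7 CAC samples, while Mcam, a surface gene of endothelium and pericytes, fell by 0.78 ± 0.18 with all 7 CAC samples below NCAC.

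Secreted signals were among the falls. Ptn, the growth factor pleiotrophin, had 132.9 ± 18.4 TPM in CAC and 191.0 ± 17.4 TPM in NCAC (−0.53 ± 0.10), and Ndp, the Norrin ligand that astrocytes make for vessels, had 11.1 ± 2.20 TPM in CAC and 15.5 ± 1.47 TPM in NCAC (−0.47 ± 0.08), each below NCAC in 6 of 7 CAC samples. Tnc, the matrix protein tenascin C, fell by 0.74 ± 0.17, and the calls of Tnc and Mcam did not hold in 4 and 1 of 12 fits with a sample removed. With only the compared groups in the fit the calls of Podxl, Cd34, Ndp and Tnc did not hold.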
